A study of Mus musculus with 13 samples.

Results

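The genes described here are 10 antagonists and feedback genes of WNT signalling: Sfrp1, Sfrp2, Sfrp4, Frzb, Wif1, Dkk2, Dkk3, Sost, Nkd1 and Axin2. They were taken by symbol from the 43346 genes of a table of RPKM values, reads per kilobase of gene length and per mega (M) of reads. Each of the 10 symbols matched 1 entry. The RNA came from mouse lung fibroblasts, which the series describes as Col1a1-GFP cells, so a collagen promoter drives the fluorescent protein that marks them. The 13 libraries were sham controls (n = 2), lungs at day 14 (n = 3) and at day 30 (n = 5) of bleomycin injury, caused by a drug that leaves scar tissue in the lung, and lungs 14 days after pneumonectomy (n = 3), surgery that removes lung tissue and is followed by growth of what remains. Per the labels, sham and bleomycin mice were of the strain Col1a1-GFP and 8 weeks old. For pneumonectomy the sample labels say primary sorted fibroblast, with no strain and no age in weeks, and a group line in the table calls all 13 libraries young. No day is given for sham, no gate for the sort, and no label says whether libraries came from separate mice, so the p-values below measure the spread between these libraries, which may be technical.

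WNT proteins are secreted signals that bind Frizzled receptors together with the co-receptors LRP5 and LRP6, which stops the destruction of beta-catenin and lets it activate genes with TCF/LEF factors. Secreted antagonists act outside the cell: the SFRP proteins (Frzb is also called SFRP3) carry a Frizzled-like domain and bind WNTs, Wif1 binds WNTs through a domain of its own, and Dkk2 and sclerostin, the product of Sost, bind the LRP co-receptors. Nkd1 and Axin2 act inside the cell, are commonly induced by beta-catenin, and restrain the pathway through Dishevelled and the beta-catenin destruction complex. In lung, WNT signals pattern the growing organ and are active in repair and fibrosis.

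Depth, estimated from the step between low values, was 67.6 to 72.0 M reads in sham, 79.9 to 99.9 at day 14 and 132.6 to 200.2 at day 30 after bleomycin, and 68.9 to 75.4 after pneumonectomy. The lowest level of any of the 10 genes, 0.252 RPKM for Dkk2 in sham replicate 2, rested on an estimated 67 reads. The 6 fibroblast markers (Col1a1, Col1a2, Col3a1, Pdgfra, Dcn and Lum) summed to between 2694 and 4434 RPKM in each of the 13 libraries. Within this sum the genes moved apart, and at day 14 after bleomycin 1 of the 6 was called above sham and 3 below. Col1a1 was then at 1196 to 1633 RPKM (sham 437 to 670) and Dcn at 117 to 169 (sham 1382 to 1856). Markers of other cells were present and uneven. The 8 endothelial markers summed to 279 to 552 RPKM at day 14 after bleomycin and to between 13 and 40.7 RPKM elsewhere, while 7 macrophage markers summed to 127 to 443 at day 14 and 195 to 739 at day 30, against 25.2 to 45.9 in sham and pneumonectomy. After pneumonectomy 7 of the 8 endothelial markers were called above sham and 1 below. Cdh5 was at 2.10 to 6.62 RPKM there (sham 0.607 to 1.39) and Tek at 4.15 to 5.53 (sham 15.5 to 15.9). Day 30 replicate 3 (1238 RPKM) and pneumonectomy library A (499 RPKM) stood apart in the 8 epithelial markers. The 5 day 30 libraries had Xist at 19.9 to 29.2 RPKM and the Y-linked Ddx3y listed at 0, and the day 14 bleomycin and pneumonectomy libraries had Ddx3y with almost no Xist. Sham replicate 1 had both (Xist 15.9, Ddx3y 2.14 RPKM) and sham replicate 2 had Ddx3y (11.4 RPKM). Day 30 and the Xist-high state cannot be told apart. The part of these differences in the results below was not tested, and in bulk RNA fewer cells of a type and less RNA per cell cannot be told apart.

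All 10 genes passed the filter of at least 1 RPKM in at least 2 libraries, as did 12938 genes in all. Differences were tested with limma on log2(scaled RPKM + 0.1) over those genes, with Benjamini-Hochberg adjusted p-values called at 0.05. Fold values are on that scale, which understates the changes of low genes. At day 14 after bleomycin 3 of the 10 rose against sham (Wif1, Dkk2, Nkd1), 3 fell (Sfrp4, Sost, Dkk3) and 4 were not called, where 63.1% of all tested genes were called, 31.6% higher and 31.5% lower. The scaled values of the groups did not overlap for 5 of the 10 and for 76.5% of tested genes. After pneumonectomy 5 rose (Wif1, Dkk2, Sost, Dkk3, Nkd1), 1 fell (Sfrp4) and 4 were not called, against 42.3% of tested genes called, 21.5% higher and 20.8% lower. Here 7 of the 10 and 61.6% of tested genes did not overlap. At day 30 after bleomycin 4 were above sham (Dkk2, Wif1, Frzb, Dkk3) and none below, 6 were not called, and 28.8% of tested genes were called, 14.9% higher and 13.9% lower, with no overlap for 4 of the 10 and 45.0% of tested genes. From day 14 to day 30 after bleomycin 5 rose (Sfrp4, Sost, Dkk2, Dkk3, Sfrp2) and 2 fell (Nkd1, Sfrp1), with 59.4% of tested genes called, 31.2% higher and 28.3% lower, and no overlap for 5 of the 10 and 59.0% of tested genes. Day 14 after bleomycin compared with pneumonectomy had 1 gene higher (Sfrp1), 4 lower (Sost, Sfrp4, Dkk3, Sfrp2) and 70.8% of tested genes called, 35.7% higher and 35.1% lower. There 4 of the 10 and 74.1% of tested genes did not overlap. Day 30 compared with pneumonectomy had 2 higher (Dkk2, Sfrp4), 2 lower (Sost, Nkd1) and 57.8% of tested genes called, 30.2% higher and 27.6% lower, with no overlap for 4 of the 10 and 54.5% of tested genes. The share of the 10 that was called was above that of all tested genes in 3 of the 6 comparisons and below it in the other 3. The 3 comparisons with sham share the same 2 sham libraries.

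**Figure D1:**
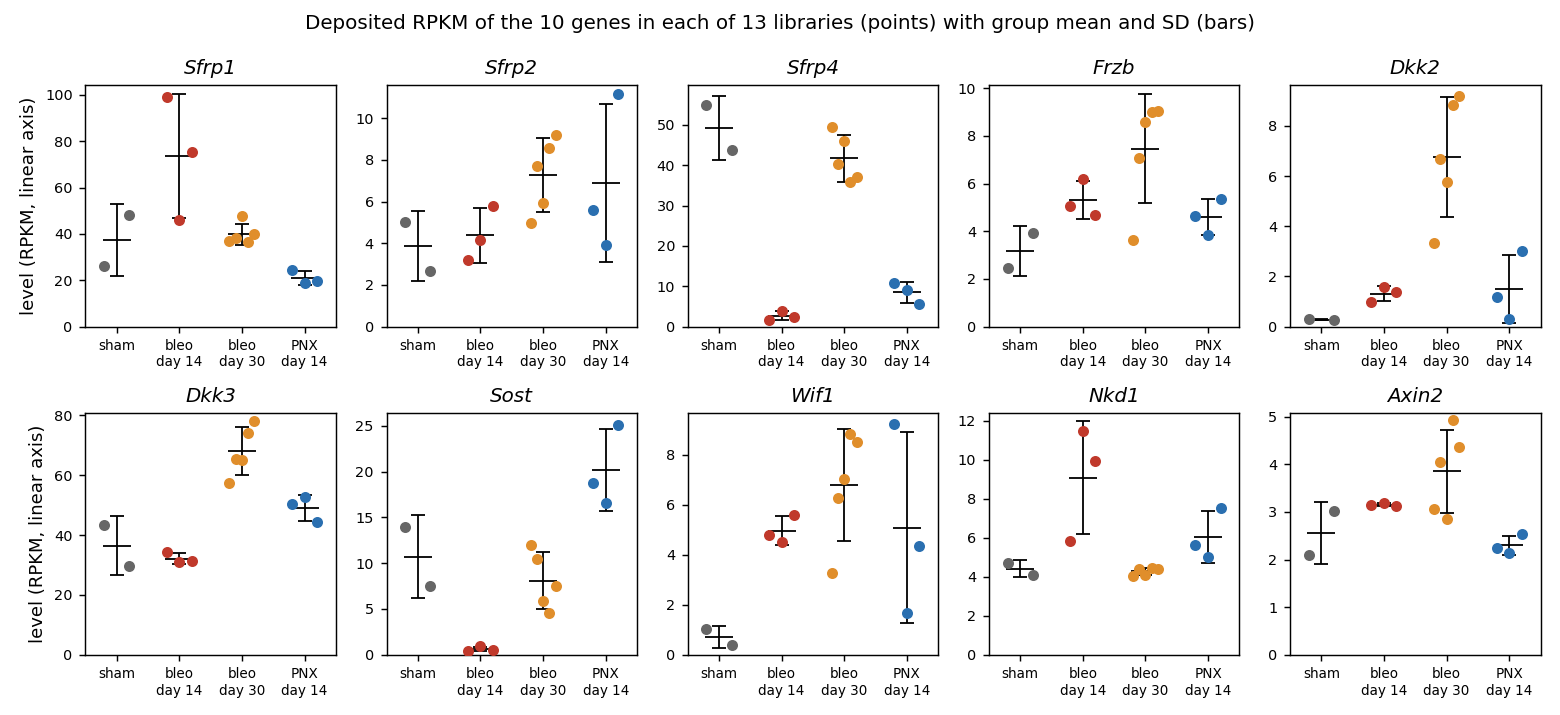
Deposited RPKM (linear axis from 0) of each of the 10 genes in the 13 libraries, 1 point per library, with the group mean and SD as black bars; PNX is pneumonectomy. Sfrp4 and Sost are lowest at day 14 after bleomycin and back at 35.8 to 49.4 and 4.53 to 12.0 RPKM at day 30, while Dkk2 is highest at day 30.

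Sfrp4 had the largest fall against sham. Its level was 54.8 and 43.7 RPKM in the sham libraries, and 1.65, 3.90 and 2.42 RPKM at day 14 after bleomycin. At day 30 it was 49.4, 40.4, 45.9, 35.8 and 37.2 RPKM, and after pneumonectomy 10.7, 8.98 and 5.70 RPKM. The day 14 bleomycin libraries were the lowest 3 of the 13, the pneumonectomy libraries the next 3, and the sham and day 30 libraries overlapped. The fitted change against sham was -4.50 ± 0.32 (SE; 22.6-fold lower, adjusted p = 4.74e-07, limma) at day 14 after bleomycin and -2.36 ± 0.32 (5.14-fold lower, adjusted p = 0.000201, limma) after pneumonectomy, which left the bleomycin libraries 4.40-fold below those of pneumonectomy (adjusted p = 3.92e-05, limma). From day 14 to day 30 Sfrp4 rose by 4.14 ± 0.26 on the log2 scale (adjusted p = 1.70e-07, limma), the 7th largest rise of the 12938 genes, and at day 30 its difference from sham was -0.36 with a 95% interval from -0.999 to 0.285. These calls held under every alternative that was run. The 8 adventitial fibroblast markers (such as Pi16, Scara5 and Dpt) summed to 1390 to 1435 RPKM in sham, 246 to 314 at day 14, 730 to 1209 at day 30 and 488 to 698 after pneumonectomy. Of the 8, 7 fell at day 14 against sham, and 6 rose and 1 fell from day 14 to day 30. At day 30, 6 of the 8 were called below sham and none above, where Sfrp4 was not called. Pi16 was then at 135 to 218 RPKM (sham 285 to 299). Ly6c1 had a different order, with 45.0 to 58.4 RPKM in sham, 69.1 to 119 at day 14 and 20.0 to 38.6 at day 30, and Dpp4 stayed below sham (4.64 to 5.21 RPKM) at day 14 (1.03 to 2.54) and day 30 (at most 3.00). The part of these cells in the change of Sfrp4 was not tested.

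Sfrp1 was the most abundant of the 10 at day 14 after bleomycin. It stood at 26.3 and 48.3 RPKM in sham, 99.3, 46.2 and 75.4 at day 14 after bleomycin, 36.8, 38.2, 47.7, 36.7 and 39.8 at day 30, and 24.6, 18.6 and 19.7 after pneumonectomy. The bleomycin day 14 libraries were all above those of pneumonectomy, by 1.27 ± 0.28 on the log2 scale (2.42-fold, adjusted p = 0.00144, limma), a call that every alternative kept. Neither group was called against sham, whose 2 libraries lie far apart: the changes were 0.70 (95% interval 0.03 to 1.38) and -0.57 (-1.25 to 0.11). Without sham replicate 2 the day 14 change was 1.14 with an adjusted p of 0.0165 (limma), and without bleomycin day 14 replicate 2 it was 1.01 with 0.00776. Without sham replicate 1 the pneumonectomy change was -1.005 with 0.0436. The fall from day 14 to day 30, by 0.67 ± 0.25 (adjusted p = 0.0358, limma), was lost in 8 of 16 alternatives, with a value of -0.39 (adjusted p = 0.193, limma) without day 14 replicate 1 and -0.64 to -0.66 (0.0588 to 0.0953) without day 14 replicate 3 or any of day 30 replicates 1, 2, 4 and 5.

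Sfrp2 and Frzb had lower levels than Sfrp1. Sfrp2 was at 5.04 and 2.68 RPKM in sham, 3.20, 4.14 and 5.81 at day 14 after bleomycin, 4.97, 7.69, 5.94, 8.55 and 9.19 at day 30, and 5.58, 3.90 and 11.2 after pneumonectomy. Every pair of groups overlapped. It was called in 2 comparisons, lower at day 14 after bleomycin than after pneumonectomy (-1.01 ± 0.36, adjusted p = 0.0261, limma) and higher at day 30 than at day 14 (0.87 ± 0.33, adjusted p = 0.0364, limma). The first was lost without pneumonectomy library C (-0.62, adjusted p = 0.116, limma) and without day 14 replicate 1 or 2 (-0.84 and -0.99, 0.0921 and 0.0607). The second was lost without day 14 replicate 1 or 2 (0.70 and 0.85, adjusted p = 0.14 and 0.0884, limma) and without day 30 replicate 2, 4 or 5 (0.79 to 0.84, adjusted p = 0.066 to 0.0731). An antisense gene, Gm26771, shares 347 exon bases with Sfrp2 on the other strand and was listed at 0.912 to 3.28 RPKM. The labels do not say that counting used strand, so reads of the pair may be mixed.

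Frzb was at 2.45 and 3.93 RPKM in sham, 5.05, 6.20 and 4.66 at day 14 after bleomycin, 3.63, 7.08, 8.61, 9.01 and 9.03 at day 30, and 4.62, 3.84 and 5.33 after pneumonectomy. Day 30 replicate 1 lay within the sham range and the other 4 above it. Day 30 was higher than sham by 1.05 ± 0.31 (2.08-fold, adjusted p = 0.0273, limma), the only comparison of 6 in which Frzb was called. Leaving out sham replicate 1 ended the call (0.73, adjusted p = 0.229, limma), as did leaving out day 30 replicate 3, 4 or 5 (0.97 to 0.98, adjusted p = 0.0514 to 0.0546, limma).

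Wif1 was low in sham and rose in all 3 other groups. Sham had 1.04 and 0.401 RPKM, day 14 after bleomycin 4.78, 4.51 and 5.60, day 30 3.26, 6.27, 7.01, 8.84 and 8.51, and pneumonectomy 9.21, 1.68 and 4.35. No library of the other groups reached down to sham, and pneumonectomy spread over more than the whole range of day 14 bleomycin, with library B closest to sham. The changes against sham were 2.48 ± 0.60 (5.58-fold, adjusted p = 0.00347) at day 14 after bleomycin, 3.00 ± 0.55 (8.01-fold, adjusted p = 0.00262) at day 30 and 2.68 ± 0.60 (6.41-fold, adjusted p = 0.00435, limma) after pneumonectomy. The first kept its call under all 13 alternatives and the second under 13 of 14. The pneumonectomy rise was lost without sham replicate 2 (2.08, adjusted p = 0.0583, limma) and with the compared groups alone (2.68, adjusted p = 0.0509, limma). The 3 groups did not separate from one another: between day 14 after bleomycin and pneumonectomy the difference was -0.20 with a 95% interval from -1.37 to 0.97.

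**Figure D2:**
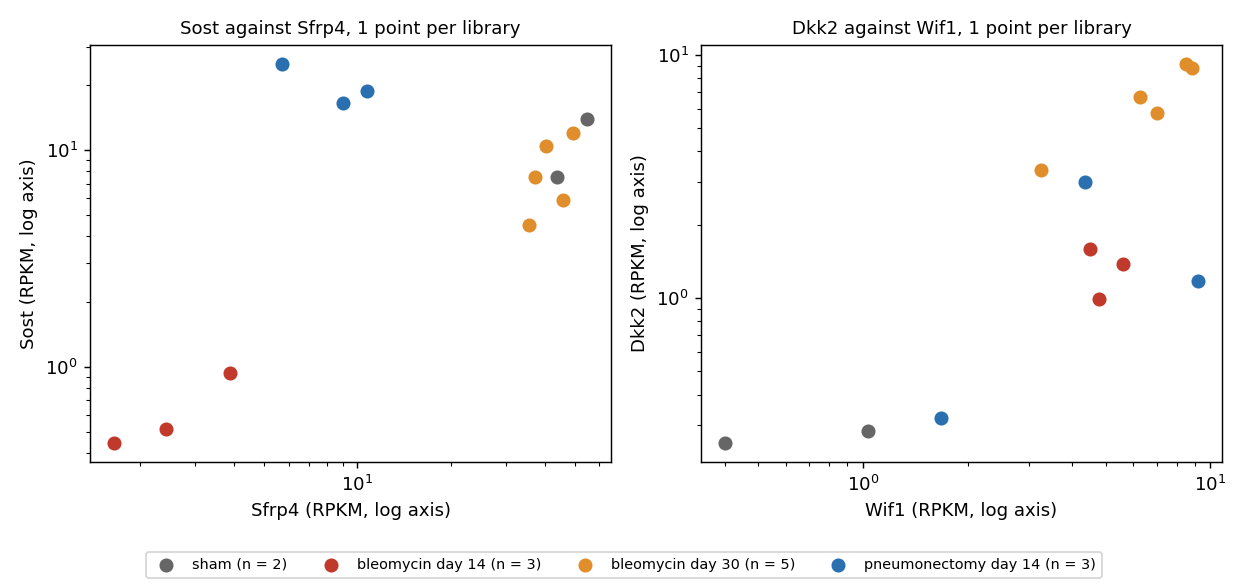
RPKM of Sost against Sfrp4 (left) and of Dkk2 against Wif1 (right), both axes logarithmic, 1 point per library, coloured by group. Day 14 bleomycin libraries are low for both Sfrp4 and Sost, whereas pneumonectomy libraries have Sfrp4 at 5.70 to 10.7 RPKM with Sost at 16.6 to 25.1 RPKM, and the 5 day 30 libraries have the highest Dkk2.

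Sost, best known as the gene of an osteocyte hormone that limits bone formation, moved in opposite directions after the 2 treatments. It lies on chromosome 11 from 101962458 to 101967015 on the minus strand (GRCm38). Sham had 13.9 and 7.52 RPKM and day 14 after bleomycin 0.443, 0.936 and 0.515 RPKM. Day 30 had 12.0, 10.4, 5.91, 4.53 and 7.56 RPKM, and pneumonectomy 18.7, 16.6 and 25.1 RPKM. The 3 bleomycin day 14 libraries were all under 1 RPKM, the 3 pneumonectomy libraries were the highest of the 13, and day 30 lay across the sham range and below it. Against sham Sost fell by 4.12 ± 0.41 on the log2 scale at day 14 after bleomycin (17.4-fold lower, adjusted p = 5.36e-06, limma), and the fall held under all 13 alternatives. Between day 14 after bleomycin and pneumonectomy the difference was -5.27 ± 0.37 (38.6-fold, adjusted p = 3.18e-07, limma). Of 12938 genes only 1 had a lower value in that comparison. By day 30 Sost had risen by 3.58 ± 0.33 from day 14 (adjusted p = 3.09e-06, limma), stood at -0.54 from sham (95% interval -1.36 to 0.29), and was still 3.23-fold below pneumonectomy (adjusted p = 0.00103, limma).

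The rise of Sost after pneumonectomy was less firm. It was 1.15 ± 0.41 against sham (2.22-fold, adjusted p = 0.0411, limma), and it was lost in 7 of 10 alternatives, with 0.71 (adjusted p = 0.311, limma) without sham replicate 2 and 1.00 to 1.27 (adjusted p = 0.0519 to 0.108, limma) without any 1 of the 3 pneumonectomy libraries. The 8 smooth muscle and pericyte markers (such as Myh11, Des and Notch3) summed to 280 to 413 RPKM after pneumonectomy, 151 to 291 in sham, 124 to 163 at day 30 and 95.2 to 130 at day 14 after bleomycin. Myh11 was the largest part of this sum after pneumonectomy (137 to 214 RPKM), and it was 18.3 to 36.4 RPKM at day 14 after bleomycin. Of the 8, 5 rose and 1 fell after pneumonectomy, and 4 fell at day 14 after bleomycin, where Des (32.1 to 48.2 RPKM, sham 17.0 to 33.4) and Notch3 (7.53 to 9.23, sham 5.12 to 10.4) were not lower. The 8 alveolar fibroblast markers summed to 768 to 895 RPKM after pneumonectomy, 645 to 772 in sham, 357 to 525 at day 30 and 150 to 169 at day 14 after bleomycin. Most of that sum was Inmt outside day 14 (474 to 578 RPKM after pneumonectomy, 34.0 to 51.5 at day 14), and 3 of the 8 fell and 1 rose at day 14 against sham. Plin2 was at 12.1 to 14.3 RPKM there and at most 4.84 in sham. The 8 cartilage and bone markers summed to 5.24 to 5.80 RPKM in sham and 4.89 to 6.24 at day 14 after bleomycin. Their sum was 8.86 to 14.8 at day 30 and 10.0 to 24.0 after pneumonectomy. Within this sum the genes moved apart, and of the 4 tested, 1 rose and 2 fell at day 14 against sham. Ibsp was then at 1.078 to 2.699 RPKM (sham at most 0.0143) and Sox9 at 0.812 to 1.397 (sham 3.098 to 3.215). Ibsp was at 2.875 to 9.338 RPKM at day 30, and Col2a1 at 0.436 to 10.167 after pneumonectomy (sham at most 0.0271). The part of these cells in the level of Sost was not tested.

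Dkk2 had the lowest level of the 10 in sham and the largest rise by day 30. It lies on chromosome 3 from 132085292 to 132180304 on the plus strand. The sham libraries had 0.285 and 0.252 RPKM, day 14 after bleomycin 0.987, 1.59 and 1.37, day 30 3.34, 6.66, 5.78, 8.83 and 9.18, and pneumonectomy 1.17, 0.320 and 2.99 RPKM. All 5 day 30 libraries were above the other 8 in RPKM, and pneumonectomy ranged from near sham to near day 30, which its library C overlapped after scaling. The change from sham to day 30 was 4.04 ± 0.59 (16.4-fold, adjusted p = 0.000825, limma), the 20th largest of the 12938 genes. Day 30 was also above day 14 by 2.36 ± 0.51 (adjusted p = 0.00206, limma) and above pneumonectomy by 2.16 ± 0.51 (adjusted p = 0.00372, limma). All 3 of these calls held under every alternative run. The earlier rises did not: day 14 after bleomycin (1.68 ± 0.64, adjusted p = 0.0385, limma) lost its call in 8 of 13 alternatives, including the removal of any 1 of its 5 libraries (adjusted p = 0.0503 to 0.13). Pneumonectomy (1.87 ± 0.64, adjusted p = 0.0352, limma) lost it in 7 of 10, with 1.19 (adjusted p = 0.0974, limma) without library C and 1.81 to 1.94 (0.0787 to 0.138) without library A or either sham library. At day 30 the endothelial markers summed to between 13 and 16.4 RPKM, below sham (20.9 to 24.8), and the macrophage markers to 195 to 739 RPKM. Most of the sham endothelial sum was Tek (15.5 to 15.9 RPKM, 4.54 to 8.76 at day 30). Plvap went the other way (2.04 to 3.39 RPKM in sham, 5.59 to 6.71 at day 30), and of the 8 endothelial markers 1 was called higher and 1 lower. The 8 mesothelial markers summed to 6.12 to 6.91 RPKM in sham, 3.48 to 5.96 at day 14 after bleomycin, 7.64 to 26.4 at day 30 and 15.5 to 51.6 after pneumonectomy, and 7 of the 8 rose from day 14 to day 30. At day 14 against sham 1 of the 8 was called lower, Rspo1, and none higher. Rspo1, also in the R-spondin list below, was at 3.36 to 3.82 RPKM in sham and 0.524 to 0.569 at day 14. Upk1b went the other way (0.102 to 0.167 RPKM in sham, 0.375 to 0.844 at day 14). Day 30 replicate 1 and pneumonectomy library B were lowest of their groups in both the mesothelial sum and Dkk2, and library C was highest of pneumonectomy in both. Other day 30 libraries did not share an order. Replicate 3 had the highest sum (26.4 RPKM) with Dkk2 at 5.78, and replicate 4 had a sum of 14.5 with Dkk2 at 8.83. Day 30 had 5 of the 8 mesothelial markers called below pneumonectomy and none above, while Dkk2 was higher at day 30. Over all 13 libraries the highest sum was in library C, and the highest Dkk2 was in day 30 replicate 5. The part of mesothelial cells in the level of Dkk2 was not tested.

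Dkk3, a divergent member of the dickkopf family with context-dependent effects on WNT signalling, was among the 3 most abundant of the 10 in every group. It was at 43.4 and 29.5 RPKM in sham, 34.4, 30.9 and 31.2 at day 14 after bleomycin, 57.4, 65.6, 65.2, 74.1 and 78.2 at day 30, and 50.3, 52.7 and 44.3 after pneumonectomy. Every day 30 and pneumonectomy library was above every sham and day 14 library. It was higher than sham at day 30 (0.80 ± 0.15, 1.74-fold, adjusted p = 0.00336, limma) and after pneumonectomy (0.66 ± 0.17, 1.58-fold, adjusted p = 0.00898, limma), and it rose from day 14 to day 30 by 1.23 ± 0.13 (2.34-fold, adjusted p = 1.18e-05, limma). Both calls against sham were lost without sham replicate 2 (0.52 and 0.38, adjusted p = 0.0577 and 0.130, limma). Day 14 after bleomycin was 2.12-fold below pneumonectomy (adjusted p = 5.02e-05, limma) under all alternatives. Its difference from sham, -0.43 ± 0.17 (adjusted p = 0.0432, limma), was lost in 10 of 13 alternatives and was -0.15 (adjusted p = 0.494, limma) without sham replicate 1 and -0.38 to -0.40 (0.098 to 0.11) without day 14 replicate 2 or 3.

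**Figure D3:**
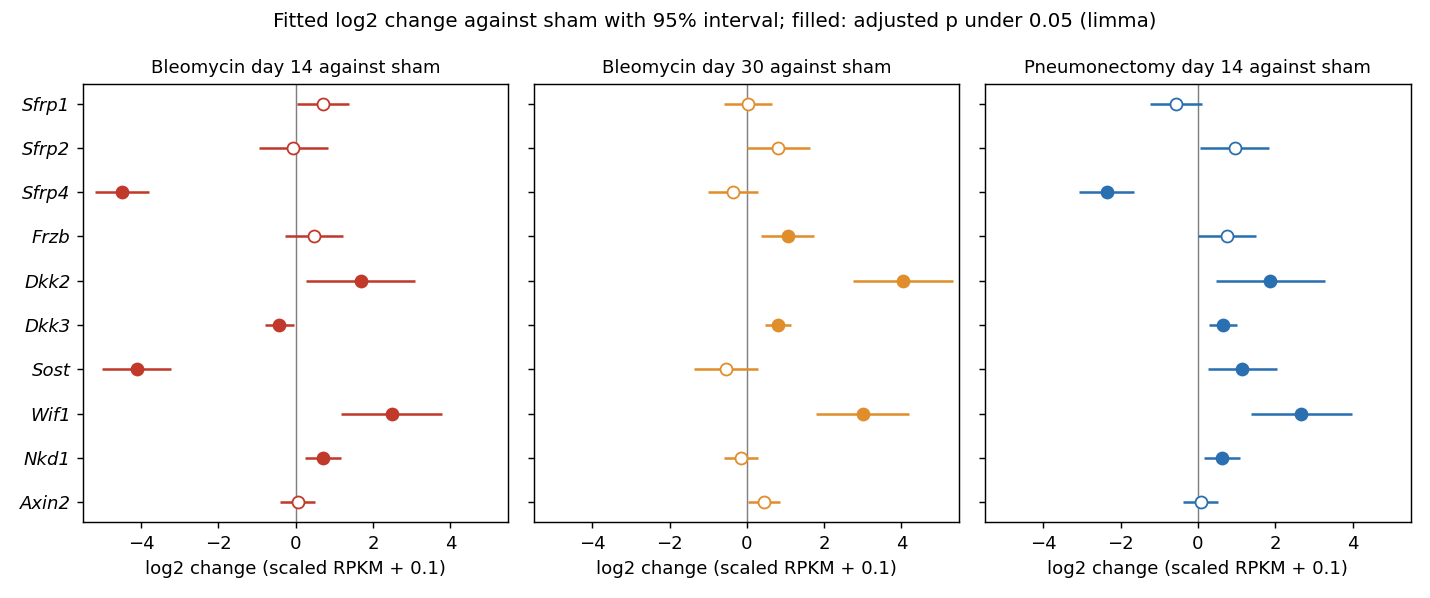
Fitted log2 change against sham (x axis, scaled RPKM + 0.1) of the 10 genes with 95% intervals, in 3 panels for day 14 and day 30 after bleomycin and for pneumonectomy; filled points have an adjusted p under 0.05 (limma). Sfrp4 and Sost fall by over 4 at day 14 after bleomycin (-4.50 and -4.12), and at day 30 Dkk2 (4.04) and Wif1 (3.00) have the largest rises.

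Of the feedback genes inside the cell, Nkd1 was called in several comparisons, with changes of at most 0.86 on the log2 scale, and Axin2 in none. Nkd1, which binds Dishevelled, was at 4.72 and 4.11 RPKM in sham, 5.84, 11.5 and 9.94 at day 14 after bleomycin, 4.05, 4.40, 4.11, 4.44 and 4.40 at day 30, and 5.62, 5.00 and 7.54 after pneumonectomy. All day 14 libraries of either treatment were above all sham and day 30 libraries, and the 5 day 30 libraries lay close together. Day 14 after bleomycin was above sham by 0.70 ± 0.22 (1.63-fold, adjusted p = 0.0136, limma) and pneumonectomy by 0.63 ± 0.22 (1.55-fold, adjusted p = 0.0345, limma). Day 30 was below day 14 by 0.86 ± 0.17 (adjusted p = 0.00115, limma) and below pneumonectomy by 0.79 ± 0.17 (adjusted p = 0.00222, limma). Replicate 1 of day 14, the lowest of its group for Nkd1, also had the lowest endothelial (279 RPKM, the others 552 and 505) and macrophage sums (127 RPKM, the others 443 and 347), and the part of these cells in the level of Nkd1 was not tested. With replicate 1 as the only day 14 library, a choice made after seeing the data, the change from sham was 0.18 and that of day 30 from day 14 was -0.34, values of a single library that have no replicate check. The day 14 rise against sham kept its call in 9 of 13 alternatives. It was 0.70 (adjusted p = 0.0788, limma) with the compared groups alone and 0.67 (adjusted p = 0.0711, limma) with a replicate block. Without sham replicate 2 it was 0.60, from a single sham library. The pneumonectomy rise lost its call in 7 of 10 alternatives. It was 0.48 (adjusted p = 0.107, limma) without library C and 0.66 (adjusted p = 0.0573, limma) without library A. Without sham replicate 1 it was 0.73 and without sham replicate 2 it was 0.53.

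Axin2, a scaffold of the destruction complex and a widely used readout of beta-catenin activity, was called in none of the 6 comparisons (limma), although other scalings gave calls at day 30. It was at 2.09 and 3.02 RPKM in sham, 3.15, 3.19 and 3.12 at day 14 after bleomycin, 3.05, 4.05, 2.86, 4.92 and 4.37 at day 30, and 2.23, 2.14 and 2.53 after pneumonectomy. After scaling, each group overlapped each other group. Its largest difference was day 30 against sham, 0.45 with a 95% interval from 0.04 to 0.87 (unadjusted p = 0.0344, adjusted p = 0.0928, limma). Unadjusted p was under 0.05 in the 3 comparisons with day 30, and without day 30 replicate 3 all 3 were called (adjusted p = 0.0167 to 0.0415, limma). Without day 30 replicate 1, 2 of the 3 were called, against day 14 (0.48, adjusted p = 0.0268, limma) and against pneumonectomy (0.46, 0.0328). Day 30 was called above pneumonectomy without scaling between libraries (0.69, adjusted p = 0.00327, limma) and with upper-quartile scaling (0.50, 0.0218), and above sham without scaling (0.57, 0.0454). At day 14 the intervals against sham ran from -0.40 to 0.50 after bleomycin and from -0.38 to 0.52 after pneumonectomy, so changes of up to about 0.5 on the log2 scale are within them. Gm11670, an antisense gene that shares 209 exon bases with Axin2, was listed at 1.24 to 3.74 RPKM, close to the level of Axin2 itself, and reads of the pair may be mixed.

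The stretches before the start sites of Sost, which fell furthest beside Sfrp4, of Dkk2, which rose furthest, and of Axin2, the gene with no call, are shown for their contrast in CG content. RefSeq windows (GRCm38.p6) of 250 bases before to 50 after the start were matched for 7 of the 10 genes, the others being Sfrp1, Sfrp4 and Dkk3. The 250 bases before the start run 5′ to 3′ on the gene's strand in lower case, with each CG pair in capitals. They lie at chr11:101967016-101967265 on the minus strand for Sost, and on the plus strand at chr3:132085042-132085291 for Dkk2 and chr11:108920099-108920348 for Axin2.
Sost: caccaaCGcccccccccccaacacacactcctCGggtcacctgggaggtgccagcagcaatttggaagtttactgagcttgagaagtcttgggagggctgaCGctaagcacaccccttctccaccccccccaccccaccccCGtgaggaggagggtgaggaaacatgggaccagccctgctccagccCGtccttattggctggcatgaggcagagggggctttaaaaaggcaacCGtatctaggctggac
Dkk2: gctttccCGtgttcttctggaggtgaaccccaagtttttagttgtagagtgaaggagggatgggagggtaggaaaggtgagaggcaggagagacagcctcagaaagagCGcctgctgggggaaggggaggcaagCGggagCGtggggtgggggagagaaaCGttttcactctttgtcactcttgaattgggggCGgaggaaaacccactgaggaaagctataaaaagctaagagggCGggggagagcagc
Axin2: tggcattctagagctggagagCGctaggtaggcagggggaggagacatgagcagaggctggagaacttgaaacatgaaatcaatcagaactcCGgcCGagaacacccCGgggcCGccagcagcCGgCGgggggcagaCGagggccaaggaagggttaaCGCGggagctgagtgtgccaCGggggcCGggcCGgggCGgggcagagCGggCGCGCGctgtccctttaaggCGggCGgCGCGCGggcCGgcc
These stretches hold 6 CG pairs for Sost, 7 for Dkk2 and 24 for Axin2, where the median over 32851 windows is 6. Wif1 had 21 CG pairs, Sfrp2 and Frzb 16 each and Nkd1 6. Dkk2 and Wif1, which were both high at day 30, therefore differ in this respect. The stretch of Nkd1, chr8:88527383-88527632 on the plus strand, lies inside the gene as placed by GENCODE M21 (88521354 to 88594884). It is therefore not the stretch before that start. The stretch of Frzb, chr2:80447397-80447646 on the minus strand, also lies mostly inside its gene (80411970 to 80447625). That of Wif1, chr10:121033754-121034003 on the plus strand, runs past the start of its gene at 121033960. The TCF/LEF core motif, CTTTG followed by 2 bases that are each A or T (4 words of 7 bases, searched on both strands), was in none of the 7 windows of 300 bases, and in 16.9% of all windows. This says only that these letters were not found in these windows.

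The makeup of the 8 secreted antagonists differed between the groups. Their summed deposited RPKM was 142 ± 7.74 RPKM in sham (SD, n = 2), 125 ± 25.8 at day 14 after bleomycin (n = 3), 186 ± 10.5 at day 30 (n = 5) and 117 ± 9.29 after pneumonectomy (n = 3). After scaling between libraries the sums were 148 ± 8.38, 108 ± 24.9, 179 ± 9.16 and 140 ± 11.0 in the same order, so day 14 after bleomycin was above pneumonectomy in deposited RPKM and below it after scaling. Shares within a library do not depend on the scaling. In sham the sum was mainly Sfrp4 (34.7% ± 3.66), Sfrp1 (26.6% ± 12.4) and Dkk3 (25.6% ± 5.53). At day 14 after bleomycin Sfrp1 made up 57.5% ± 9.80 and Sfrp4 only 2.32% ± 1.48. After pneumonectomy Dkk3 (42.4% ± 6.33) led, and Sost reached 17.2% ± 3.43, against 7.48% ± 2.77 in sham and 0.551% ± 0.351 at day 14 after bleomycin. At day 30 Dkk3 (36.5% ± 2.91), Sfrp4 (22.6% ± 4.13) and Sfrp1 (21.4% ± 2.05) were again the main parts, and the share of Dkk2 was 3.60% ± 1.16, against 0.189% ± 0.00585 in sham. Shares are of RPKM, a level per gene length, and were described without a test.

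**Figure D4:**
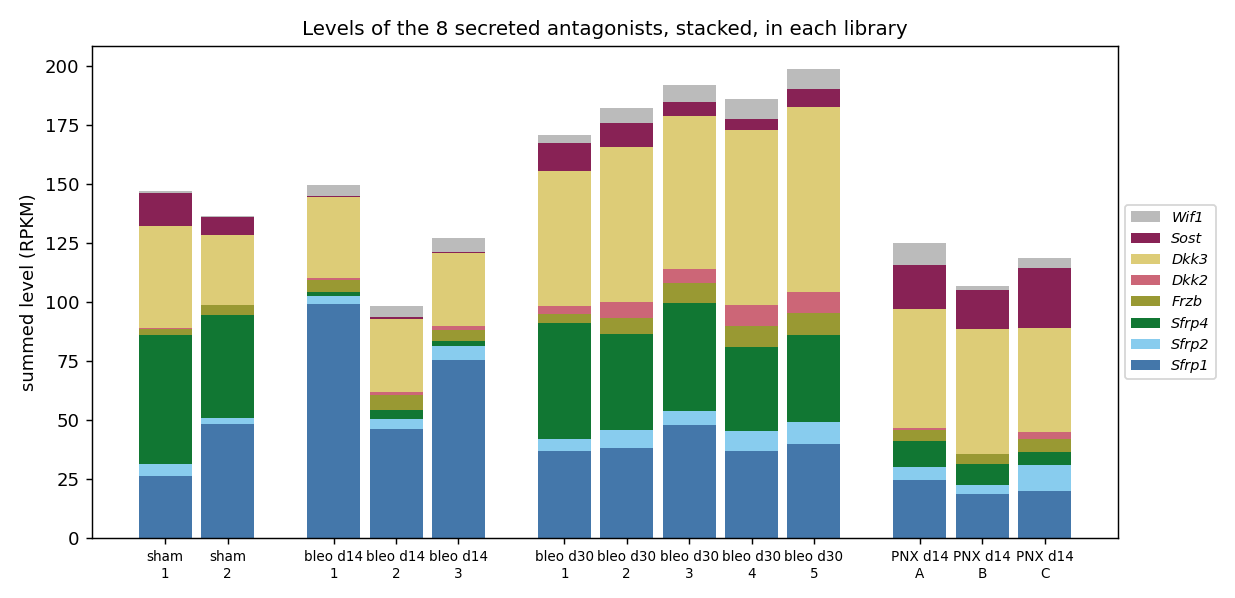
Stacked deposited RPKM of the 8 secreted antagonists (y axis from 0) in each of the 13 libraries; bleo d14 and bleo d30 are days 14 and 30 after bleomycin and PNX is pneumonectomy. Sfrp1 fills 46.9% to 66.3% of the day 14 bleomycin bars, and Sfrp4 fills 32.1% to 37.3% of the sham bars and 1.10% to 3.96% of those at day 14.

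Libraries of 1 group also differed among themselves in a shared way. Day 30 replicate 1 had the lowest level of its group for Dkk2, Wif1, Frzb, Sfrp2 and Dkk3 and the highest for Sfrp4 and Sost. It also had the highest adventitial sum of the 5 (1209 RPKM, the others 730 to 1015) and the lowest macrophage (195 RPKM, the others 410 to 739) and mesothelial sums (7.64 RPKM, the others 14.5 to 26.4). Pneumonectomy library B had the lowest level of its group for all of the 10 but Sfrp4 and Dkk3, and library C had the highest Sost, Dkk2, Sfrp2, Frzb, Nkd1 and Axin2 with the lowest Sfrp4 and Dkk3. Library C also had the highest mesothelial sum (51.6 RPKM, against 23.6 in A and 15.5 in B), the highest smooth muscle and pericyte sum (413 against 280 and 295) and the lowest adventitial sum (488 against 653 and 698). The part of these cells was not tested. Over the 13 libraries Dkk2 correlated with Frzb (Pearson r = 0.80) and Wif1 (0.78), and Sfrp1 inversely with Sost (-0.84). These are descriptions over libraries that fall in 4 groups and share them.

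By the same measure over the 13 libraries, the 3 genes most like Sfrp4 were Anpep, N4bp2l1 and Il33 (r = 0.98 to 0.99), and those most like Sost were Foxc1, Tcf7l2 and Kank1 (0.99 each). Dkk2 was most like Mdk, Samd14 and Mgat3 (0.92 to 0.94), and Wif1 most like Col11a1, Rgs2 and Postn (0.92 to 0.94), of which Col11a1 and Postn encode matrix proteins. Nkd1 was most like Ednrb, Itpkb and Itga3 (0.96 to 0.98), and Dkk3 like Fbln7, Mmp11 and Nbl1 (0.95 to 0.96). Sfrp1 was most like Fkbp5, Pwp1 and Nsun2 (0.92 to 0.93), Sfrp2 like Aldh4a1, Plxnb1 and R3hdm4 (0.90 to 0.93), and Frzb like Col8a1, Trf and Sgpl1 (0.87 to 0.92). Among the genes closest to Axin2 were Zmym3 (0.90) and Nkd2 (0.84), a paralogue of Nkd1.

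Around these 10 genes, other WNT antagonists moved in both directions. Of 19 listed, 11 were tested, and against sham 1 rose and 6 fell at day 14 after bleomycin, 5 rose and 4 fell after pneumonectomy, and 3 rose and 2 fell at day 30. The shares of all tested genes called in these comparisons, 63.1%, 42.3% and 28.8%, also stand behind the counts of the other lists, and a count near them says nothing particular of a list. Notum, an enzyme that inactivates WNTs by removing their lipid and is itself a beta-catenin target, was 10.1 ± 2.74 RPKM at day 14 after bleomycin, 2.28 ± 0.570 at day 30 and 1.74 ± 0.686 after pneumonectomy, against 0.230 ± 0.0229 in sham (log2 changes 4.67, 2.72 and 2.61, adjusted p = 6.80e-07, 0.000257 and 0.000194, limma). Dact1, a binding partner of Dishevelled, fell from 35.8 ± 7.88 RPKM to 4.28 ± 0.729 at day 14 after bleomycin and 11.0 ± 0.709 after pneumonectomy, and was at 23.9 ± 3.18 at day 30. Nkd2 was 7.82 ± 2.24 RPKM at day 30 against 1.73 ± 0.333 in sham (log2 change 1.96, adjusted p = 0.000458, limma). From day 14 to day 30 after bleomycin 9 of the 11 rose and 1 fell (8 and 1 without scaling between libraries), where 31.2% of all tested genes rose and 28.3% fell, Dact1, Shisa3, Dact3 and Igfbp4 being those with the smallest p.

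Among the WNT ligands 10 of 19 were tested. Against sham 2 rose and 6 fell at day 14 after bleomycin, none rose and 5 fell after pneumonectomy, and 2 rose and 2 fell at day 30. Wnt2b fell from 7.54 ± 1.03 RPKM to 0.219 ± 0.0769 at day 14 after bleomycin and 1.07 ± 0.419 after pneumonectomy, and was at 2.86 ± 0.788 at day 30. Wnt10b fell from 5.78 ± 0.144 RPKM to 0.293 ± 0.0274, 0.849 ± 0.250 and 2.72 ± 0.437 in the same order. Wnt10a was nearly absent in sham (0.0143 ± 0.0117 RPKM) and after pneumonectomy (0.0604 ± 0.0407) and present after bleomycin, at 4.22 ± 1.43 RPKM at day 14 and 1.57 ± 0.345 at day 30 (adjusted p against sham 2.44e-07 and 6.27e-05, limma). Of 6 genes for WNT secretion and R-spondins 4 were tested, and at day 14 after bleomycin Rspo1 fell (0.545 ± 0.0226 against 3.59 ± 0.322 RPKM) and Porcn, which adds the lipid to WNTs, rose (3.76 ± 0.268 against 1.49 ± 0.0691 RPKM).

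Of 20 receptor genes 16 were tested, and all 16 were called at day 14 after bleomycin, 7 higher and 9 lower, where 63.1% of all tested genes were called, 31.6% higher and 31.5% lower. Fzd6 rose from 0.697 ± 0.129 to 4.96 ± 0.683 RPKM, and Fzd2 fell from 11.4 ± 1.02 to 4.67 ± 0.311 RPKM. After pneumonectomy, where 42.3% of tested genes were called, 8 rose and 2 fell, among them Lrp5 (6.20 ± 0.703 against 2.72 ± 0.0156 RPKM), a co-receptor bound by sclerostin and Dkk2, and Lrp4 (12.6 ± 1.37 against 6.02 ± 1.86 RPKM), which also binds sclerostin. Lrp6 fell at day 14 after bleomycin (5.79 ± 0.237 against 9.67 ± 1.06 RPKM). At day 30, 4 receptors were above sham and 5 below, which became 5 and 3 without scaling between libraries.

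Genes of the beta-catenin machinery had a median log2 change of -0.13 at day 14 after bleomycin and 0.05 after pneumonectomy, and the balance of their calls depends on the scaling. Of 18 tested, 3 rose and 7 fell at day 14 after bleomycin, which became 7 and 3 without scaling between libraries, and 5 rose and 1 fell after pneumonectomy, which became 2 and 7. The calls of 3 genes at day 14 held under all 3 scalings and were over 1 in size on the log2 scale after scaling by the trimmed mean. Tcf7l1, a TCF/LEF factor, fell from 7.13 ± 0.254 to 3.71 ± 0.145 RPKM (-1.19, adjusted p = 5.34e-07, limma), and Pygo1, a co-factor of beta-catenin, from 1.38 ± 0.0731 to 0.654 ± 0.0577 RPKM (-1.21, adjusted p = 2.63e-06, limma). Tcf7, also a TCF/LEF factor, rose under all 3 scalings, to 5.11 ± 0.355 RPKM at day 14 after bleomycin and 2.69 ± 0.852 at day 30 from 0.581 ± 0.0321 in sham. Of 12 listed beta-catenin target genes, 5 are also in the antagonist list, 2 (Lef1 and Tcf7) in the machinery list and 1 (Lgr5) in the receptor list. Of the 12 target genes 8 were tested. Against sham 4 rose and 2 fell at day 14 after bleomycin, 5 rose and 1 fell after pneumonectomy, and 5 rose and 2 fell at day 30, where 63.1%, 42.3% and 28.8% of all tested genes were called. Ccnd1, the cell-cycle gene of cyclin D1, was 28.4 ± 1.07 RPKM at day 14 after bleomycin against 1.13 ± 0.0979 in sham. Myc was 38.6 ± 5.72 RPKM after pneumonectomy against 17.0 ± 5.23 in sham and 6.63 ± 0.483 at day 14 after bleomycin. Tnfrsf19 was 9.58 ± 2.64 RPKM at day 30 and 9.36 ± 0.618 after pneumonectomy against 2.85 ± 0.276 in sham.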

How the data were processed

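RNA was sequenced from lung fibroblasts in 13 libraries. Per the labels' protocols, 200 ng of total RNA went into TruSeq v2 libraries, and poly(A) selection, an RNA quality number of 6 or more and amplification over 12 PCR cycles are stated for the 10 sham and bleomycin libraries alone. The authors deposited 1 table of RPKM values for 43346 genes, on mm10 (GRCm38) per the submitters' processing notes. The aligner, counter and annotation are not given in the sources used here. All 13 value columns were used. Columns of pneumonectomy could be matched to the group only, and its 3 libraries are named A, B and C. Labels for pneumonectomy differ from the rest, so preparation and pneumonectomy cannot be told apart.

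The 10 genes and the other gene lists were chosen with earlier results of these data known. All 10 genes are named. Of each other WNT list, the 4 genes with the smallest p per comparison could be named. Of the 3 genes most like each member, 1 for Axin2 is not reported here. RPKM were scaled between libraries by a trimmed mean of log ratios (30% of ratios, 5% of levels trimmed), 0.1 was added, and all 13 libraries were fitted in 1 model with limma 3.58.1 (R 4.3.3, intensity trend, robust) over the 12938 genes that reached 1 RPKM in 2 or more libraries. Tests were two-sided over 6 comparisons, with Benjamini-Hochberg adjustment over all tested genes. The spread is shared over groups, so comparisons with the 2 sham libraries assume that sham varies like the others. The script was tested on simulated data. Alternatives were a pseudocount of 1, no filter, no scaling, upper-quartile scaling, the compared groups alone, a replicate block and leaving out each library. A further 2, bleomycin day 14 replicate 1 alone and the 10 sham and bleomycin libraries without the block, were chosen after seeing the data.

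Read depth was estimated from values under 0.03 RPKM with GENCODE M21 gene lengths. Of 42895 such values, corrected for relative depth, 95.0% were whole multiples of the smallest value of their gene within 0.01. A value also counted if it became whole on multiplying by 2. The smallest value of each gene passes by construction and gene lengths do not enter, so this does not check the estimated number of reads. A read in a 2 kilobase gene was worth 0.0025 to 0.0074 RPKM. Reads were amplified and carry no stated molecular identifiers, so they are not independent molecules. No count test was run. Protein sequences were not used here, so the planned protein comparison was not run. Gene positions are from GENCODE M21 (GRCm38) and promoter windows from RefSeq (GRCm38.p6).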

Additional observations from a re-analysis of the deposited data

Results flagged for a closer look

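Sfrp1 at day 30 after bleomycin had 1 library far from the others: replicate 3 at 47.7 RPKM, with the other 4 at 36.7 to 39.8. Its gap to the nearest library was 0.711 of the range of the group, against Dixon's 95% value of 0.71 for 5 libraries. This was 1 of 10 such groups looked at, and chance alone marks about 1 group in 20. The same library had the highest epithelial sum (1238 RPKM).

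Sost changed in opposite directions at day 14, lower than sham after bleomycin in 3 of 3 libraries and higher after pneumonectomy in 3 of 3. The rise after pneumonectomy (adjusted p = 0.0411, limma) kept its call in only 3 of 10 alternatives. The change after bleomycin minus that after pneumonectomy was -5.271 on the log2 scale, and since both are taken from the same sham libraries this is the difference between the 2 treatments (adjusted p = 3.18e-07, limma). Over 12 alternatives it ran from -5.59 to -4.02.

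Dkk3 also differed between the treatments, with -1.083 (adjusted p = 5.02e-05, limma) and a range of -1.18 to -0.61 over 12 alternatives. Its fall against sham at day 14 after bleomycin kept its call in only 3 of 13 alternatives. Its bleomycin and sham libraries overlapped, while the 3 pneumonectomy libraries lay above both sham libraries.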

How the results depend on the processing

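Of 780 values of the 10 genes under the alternatives, 649 kept their direction and side of the threshold, 80 lost a call, 24 gained one and 27 changed sign. Sfrp4 kept every call, and so did the fall of Sost at day 14, its rise by day 30 and the higher Dkk2 at day 30 in its 3 comparisons. A change of sign in a called gene was not seen in the 32 calls of the 10 genes. Comparisons with 1 sham library left out, or with day 14 replicate 1 alone, assume that the lone library varies like the other groups. Depth limits the lowest values most: Dkk2 in sham replicate 2 rested on an estimated 67.3 reads. The cause of the changes below was not tested.

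Without scaling the median of all genes moved by 0.26 (day 14 against sham), -0.21 (pneumonectomy), 0.47 (day 14 against pneumonectomy), -0.13 (day 30 against day 14), 0.11 (day 30 against sham) and 0.34 (day 30 against pneumonectomy). The share of calls that were higher went from 50.04%, 50.9%, 50.4%, 52.5%, 51.9% and 52.2% to 71.6%, 25.4%, 77.4%, 34.8%, 76.4% and 81.1% in this order. With upper-quartile scaling it was 35.3% for pneumonectomy against sham and 66.2% for day 30 against pneumonectomy, with medians of -0.12 and 0.15, and 0.13 for day 14 against pneumonectomy.

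Without scaling, uncalled values changed sign: Sfrp2 at day 14 against sham (0.20) and at day 30 against pneumonectomy (0.18), Axin2 after pneumonectomy (-0.13), and at day 14 against pneumonectomy Frzb (0.20), Dkk2 (0.24), Wif1 (0.27) and Axin2 (0.44). Day 30 against pneumonectomy then called 7 of the 10 genes instead of 4. Upper-quartile scaling turned Axin2 after pneumonectomy (-0.037) and at day 14 against pneumonectomy (0.097). With no filter Sfrp2 at day 14 against sham was 0.027 and Axin2 against pneumonectomy 0.063, and 3 of the 10 were called after pneumonectomy instead of 6. The compared groups alone called 3549 genes and 3 of the 10 after pneumonectomy, against 5475 and 6. With bleomycin day 14 replicate 1 alone, Nkd1 against pneumonectomy was -0.45 (adjusted p = 0.0456, limma; range over its alternatives 0.0314 to 0.994) and Axin2 0.028.

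With libraries left out 1 at a time, against sham at day 14 Sfrp2 ran from -0.51 to 0.39 and Axin2 from -0.20 to 0.30. Pneumonectomy against sham called 3406 (without sham replicate 2) to 5104 genes and 1 (without sham replicate 2) to 6 of the 10, with Axin2 from -0.18 to 0.32. Day 14 against pneumonectomy gave Dkk2 from -0.95 to 0.49, Wif1 from -0.81 to 0.39, Nkd1 from -0.12 to 0.33 and Axin2 from -0.058 to 0.027. Day 30 against sham called 1805 (without sham replicate 2) to 4076 genes, with Sfrp1 from -0.40 to 0.47. Day 30 against pneumonectomy gave Sfrp2 from -0.46 to 0.26 and Wif1 from -0.29 to 0.91.

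Sham and bleomycin labels share replicate numbers, but deviations of same-numbered libraries correlated at -0.127 to 0.136, so the numbers were not taken as pairs. With a replicate block 6776 genes and 4 of the 10 were called at day 14 against sham, 6034 and 5 from day 14 to day 30, and 360 and 1 at day 30 against sham, against 8165 and 6, 7689 and 7, and 3728 and 4 without it. The rise of Wif1 at day 30 against sham was then 2.59 (adjusted p = 0.0566, limma). No paired analysis was possible for pneumonectomy because its columns could not be matched to the numbered samples.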
